A study of Mus musculus with 17 samples.

Results

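The second step of neonatal maturation was followed in the left ventricle of male C57Bl/6 mice, from postnatal day 3 (P3) to postnatal day 7 (P7). It rests on 3 libraries per age, 6 of the 17 in the study, chosen by their labels alone. The study sampled the left and right ventricles (LV, RV) at P0, P3 and P7 with 3 libraries per group, except 2 for RV P7. The labels name no treatment and no engineered allele in any group. They place P0 before the ductus arteriosus closes, call P3 a transition, and set P7 as the age of terminal differentiation for most cardiomyocytes. Total RNA was sequenced with paired ends and strand kept, and the values are RPKM (reads scaled to transcript length and library size), 1 per RefSeq messenger RNA entry. Of 20624 entries, 10668 reached 1 RPKM in at least 2 libraries and were tested; they belong to 10236 genes. The libraries are called biological replicates; whether they came from separate litters is not stated in the labels.

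After birth the left ventricle takes over the systemic load, and its muscle cells stop dividing, replace fetal contractile proteins and switch from glucose and lactate to fatty acids as fuel. In rodents this change spreads over the days after birth, while the capillary bed and the connective tissue of the wall expand. Each library came from a piece of ventricle with several cell types, so fewer cells of a type and less RNA per cell cannot be told apart in any value given here. Myocardial identity was clear: the cardiac troponin I gene Tnni3 stood at 3120.0, 2893 and 2907 RPKM at P3 and 3403, 2933 and 3002 RPKM at P7. These ranges overlapped (adjusted p = 0.702). Here ± after an RPKM mean is the SD of 3 libraries, and ± after a log2 value is its SE from limma on log2(RPKM + 1), so that changes of genes near 1 RPKM are understated. Every adjusted p is two-sided and Benjamini-Hochberg adjusted over the 10668 entries, and an entry is called at an adjusted p under 0.05. Positions span whole genes in GRCm38, counting from 1.

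The 6 libraries held 33218664 to 37923538 recovered reads each. Age was the leading component, which held 67.9% of the variance: the P7 libraries lay at 16.4, 20.5 and 17.4 and the P3 libraries at -26.2, -7.64 and -20.4. LV P3 replicate 2 thus stood apart from its group, toward P7. The share of a library that fell in the listed entries was 62.8% ± 4.16 at P3 (58.4% in replicate 2) and 56.5% ± 2.34 at P7 (exact permutation test, two-sided, p = 0.1, the smallest 3 against 3 can give). The entry NM_008710, which neither gene table names, stood at 14.6 and 3.19 RPKM in the first P3 and the first P7 library and at 0.128 to 0.185 RPKM in the other 4. In the right ventricle it stood at 9.19 and 7.26 RPKM in the first P3 and P7 libraries and at 0.142 to 0.205 RPKM in the other 3, and all 6 P0 libraries held 2.99 to 15.6 RPKM. The step from P0 to P3 is thus partly mixed with the state of this entry. At P3 and at P7 alike, only the first library held the higher level. The labels give the strain with no substrain, and whether these animals differed in genetic background was not determined. With this state as a term, 691 entries rose and 2932 fell from P3 to P7 (against the 700 and 2974 given next), and 459 differed between the steps from P0 to P3 and from P3 to P7 (against 409).

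Between P3 and P7, 700 entries rose (6.56% of those tested) and 2974 fell (27.9%). On the log2(RPKM + 1) scale, 47 risers (0.441%) and 64 fallers (0.6%) reached a change of 1. Some called entries below that mark still passed 2-fold in the ratio of means. Examples are Rxrg, which rose 4.25-fold, and Bub1b, which fell 2.13-fold. The median over all tested entries was -0.17 on the log2 scale. Dividing each library by its upper quartile moved that median to -0.02 and the calls to 1432 higher (13.4%) and 1355 lower (12.7%), so the share of falls among the calls went from 80.9% to 48.6%. All 700 risers were called higher under both scalings, and so were 1355 of the 2974 fallers called lower. Without LV P3 replicate 2 the counts were 630 and 3708, without LV P3 replicate 1 they were 551 and 1556, and without LV P3 replicate 3 they were 518 and 1876. With the first P3 and P7 libraries left out in both chambers, 336 rose and 1000 fell. The 3 P7 libraries lay above all P3 libraries for 969 entries (9.08%) and below them for 3877 (36.3%). Counts of falls are therefore given with their number after upper-quartile scaling, in the order higher and lower.

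**Figure D1:**
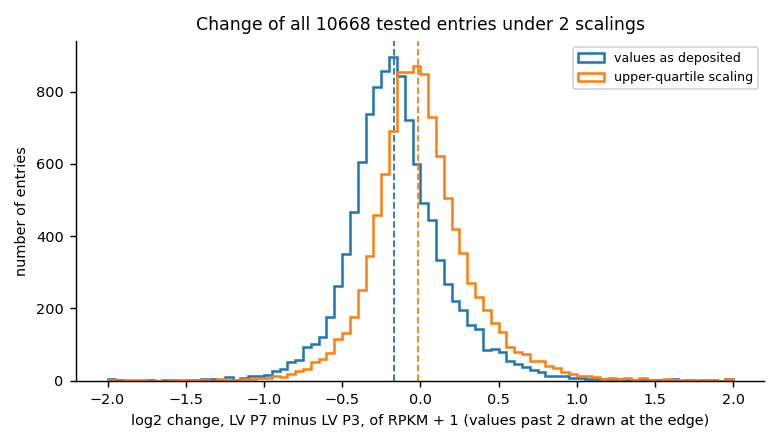
Distribution of the log2 change from P3 to P7 in the left ventricle over all 10668 tested entries, with the values as deposited (blue) and after upper-quartile scaling (orange); dashed lines mark the medians. The whole distribution moves from a median of -0.17 to -0.02, while its shape stays narrow around the median.

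The largest fall on the log2(RPKM + 1) scale was that of Myh7, the slow beta-myosin heavy chain of the fetal ventricle (chromosome 14, 54970684 to 54994626), at 457, 98.3 and 220.1 RPKM at P3 and 14.7, 15.9 and 15.8 RPKM at P7. The P3 libraries were widely spread and all lay above the P7 libraries. The mean fell 16.7-fold (log2 = -3.71 ± 0.36, adjusted p = 1.16e-06), and the log2 change was -4.27 without LV P3 replicate 2, the lowest P3 library. Tnni1, the slow troponin I that Tnni3 replaces in the neonatal heart (chromosome 1, 135783033 to 135810989), stood at 292, 182 and 174 RPKM at P3 and 55.4, 53.7 and 53.1 RPKM at P7. It fell 4-fold with no overlap (log2 = -1.94 ± 0.16, adjusted p = 1.43e-07, 1 of 2 entries of the gene). Its first step, from P0 to P3, was -0.34 ± 0.16, and the steps differed (adjusted p = 0.00132; both use the P3 libraries). For Myh7 the first step was -3.83 ± 0.36, and the difference between the steps was not called (adjusted p = 0.953). Tnni1 thus fell after P3, while Myh7 fell in both steps.

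Of 15 tested fetal-type sarcomere and stress genes, 3 rose and 3 fell, with a median of 0.03 (3 and 3 with upper-quartile scaling, 2 and 5 without LV P3 replicate 2). Among all tested entries 6.56% rose and 27.9% fell. Besides Myh7 and Tnni1, the smooth muscle calponin gene Cnn1 fell (7.91 ± 1.25 to 3.03 ± 0.695 RPKM; -1.15 ± 0.25). Nppb, which encodes B-type natriuretic peptide (chromosome 4, 147985786 to 147987205), stood at 92.9, 64.7 and 117 RPKM at P3 and 131, 179.9 and 197 RPKM at P7. Every P7 library was above every P3 library (log2 = 0.90 ± 0.27, adjusted p = 0.0145), a call that ended without LV P3 replicate 2 (adjusted p = 0.0641), LV P7 replicate 2 (0.0552) or LV P7 replicate 3 (0.0613). Its first step ran the other way, at -1.56 ± 0.27, and the steps differed (adjusted p = 0.00317). Its neighbour Nppa, the atrial natriuretic peptide gene, stood at 149, 282 and 169 RPKM at P3 and 153, 239 and 251 RPKM at P7, and the ages overlapped (log2 = 0.13 ± 0.29, adjusted p = 0.749). Acta1, skeletal alpha-actin (0.50 ± 0.14), and the beta-tropomyosin gene Tpm2 (0.56 ± 0.15) rose.

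Of 21 tested adult-type sarcomere genes 1 rose, 4 fell and 16 did not pass, where 6.56% of all tested entries rose and 27.9% fell (1 and 3 with upper-quartile scaling, 0 and 1 without the first P3 and P7 libraries), with a median of -0.04. The Z-disc gene Myoz2 rose (0.33 ± 0.12). The ventricular light chain Myl2 fell (log2 = -0.49 ± 0.13, adjusted p = 0.00975), no longer called under upper-quartile scaling (adjusted p = 0.21), as did leaving out LV P3 replicate 1 (adjusted p = 0.0699). The alpha-myosin Myh6 entry NM_001164171, 1 of 2 of that gene, stood at 70.0, 58.3 and 87.2 RPKM at P3 and 56.4, 37.5 and 55.8 RPKM at P7. It was not called (log2 = -0.52 ± 0.27, adjusted p = 0.143), and its level need not be that of the whole gene. Tcap, the titin cap of the Z-disc, stood at 142, 117 and 97.7 RPKM at P3 and 172, 94.4 and 103 RPKM at P7, with ages that overlapped (log2 = 0.01 ± 0.19, adjusted p = 0.965). Its chromosomal neighbour Ppp1r1b, a phosphatase inhibitor gene (chromosome 11, 98348406 to 98357796), stood at 14.6, 13 and 12.6 RPKM at P3 and 3.28, 2.11 and 2.91 RPKM at P7, and it fell 4.84-fold (log2 = -1.94 ± 0.15, adjusted p = 4.37e-08). The Tnnt2 entry NM_001130174, 1 of 9 of that gene, fell (-1.16 ± 0.28); reads that entries of a gene share may be split between them. The mitochondrial creatine kinase Ckmt2, which hands phosphate from ATP to creatine at the mitochondrial membrane, stood at 184, 138 and 163 RPKM at P3 and 453, 424 and 444 RPKM at P7. It rose 2.72-fold (log2 = 1.45 ± 0.28, adjusted p = 0.00101), 1 of 10 creatine and phosphotransfer genes that did, while 1 fell (1 and 0 with upper-quartile scaling).

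**Figure D2:**
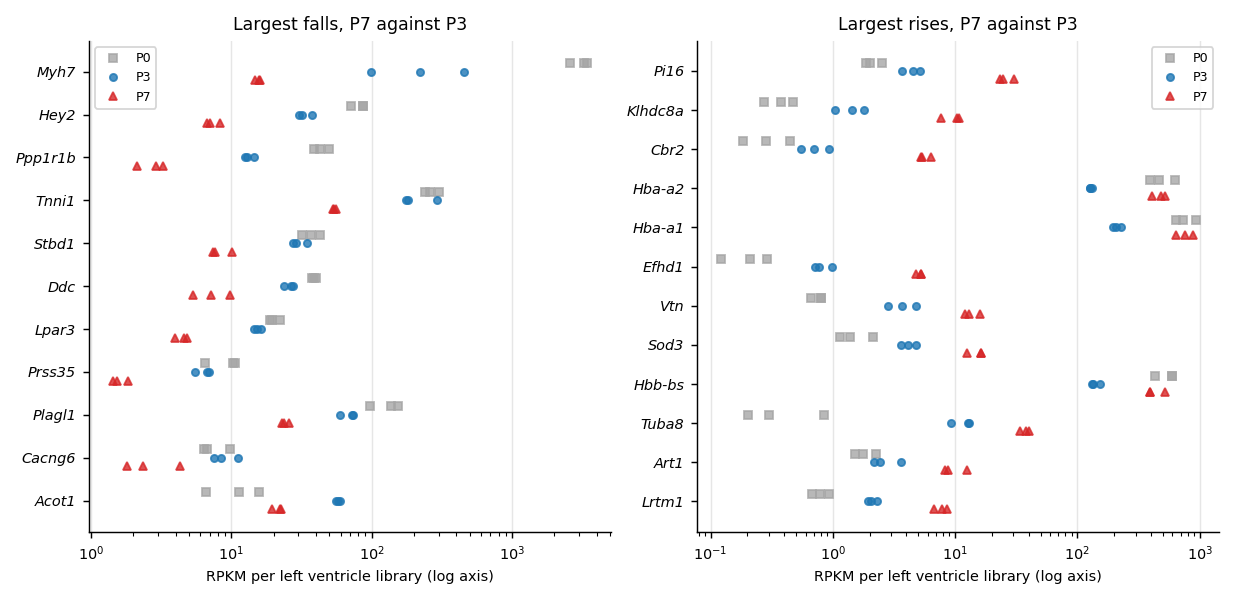
RPKM in each left ventricle library at P0 (squares), P3 (circles) and P7 (triangles) for 11 of the 12 largest falls (left) and the 12 largest rises (right) from P3 to P7, on a log axis. No P7 library overlaps a P3 library for these genes, which is how they were chosen, and for Acot1 and the globin genes the P0 libraries lie on the P7 side of P3.

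The other large falls came from several kinds of gene. Hey2, a transcription repressor of compact ventricular muscle (chromosome 10, 30832359 to 30842783), stood at 37.4, 31.7 and 30.3 RPKM at P3 and 8.32, 7.04 and 6.74 RPKM at P7 and fell 4.5-fold (log2 = -2.03 ± 0.11, adjusted p = 1.3e-09). Stbd1, a glycogen-binding protein gene, fell from 30.2 ± 3.85 to 8.34 ± 1.46 RPKM (-1.74 ± 0.15), and Ddc, aromatic amino acid decarboxylase, from 25.9 ± 2 to 7.41 ± 2.23 RPKM (-1.71 ± 0.14). Lpar3, a lysophosphatidic acid receptor gene, fell from 15.3 ± 0.92 to 4.47 ± 0.418 RPKM (-1.58 ± 0.11). Prss35, a protease-like gene, fell from 6.35 ± 0.776 to 1.6 ± 0.214 RPKM (-1.50 ± 0.29), and Cacng6, a calcium channel gamma subunit, from 9.05 ± 1.9 to 2.82 ± 1.32 RPKM (-1.43 ± 0.20). All of these passed after upper-quartile scaling too.

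The largest rise on the log2(RPKM + 1) scale was that of Pi16, a peptidase-inhibitor gene of fibroblasts (chromosome 17, 29318796 to 29328903), at 3.68, 4.49 and 5.18 RPKM at P3 and 23.1, 24.5 and 30.2 RPKM at P7. Every P7 library lay above every P3 library, and the mean rose 5.83-fold (log2 = 2.31 ± 0.20, adjusted p = 2.84e-07). Klhdc8a, a kelch-domain gene, stood at 1.04, 1.78 and 1.45 RPKM at P3 and 10.3, 7.69 and 10.8 RPKM at P7 (2.13 ± 0.13), and Cbr2, a carbonyl reductase gene, at 0.705, 0.93 and 0.547 RPKM at P3 and 6.31, 5.28 and 5.41 RPKM at P7 (1.95 ± 0.14). In the ratio of means Cbr2 (7.79-fold), Klhdc8a (6.76-fold) and Efhd1 (6.17-fold), all near 1 RPKM at P3, exceeded Pi16. The mitochondrial calcium-binding protein gene Efhd1 rose from 0.826 ± 0.144 to 5.1 ± 0.26 RPKM (1.74 ± 0.12). Tuba8, an alpha-tubulin of muscle, rose from 11.7 ± 2.11 to 37.2 ± 3.29 RPKM (1.60 ± 0.23), after a first step of 3.14 ± 0.23. The extracellular superoxide dismutase Sod3 (4.18 ± 0.61 to 14.9 ± 2.19 RPKM; 1.62 ± 0.15), the adhesion protein Vtn (3.78 ± 0.991 to 13.7 ± 2.15 RPKM; 1.63 ± 0.18), the muscle ADP-ribosyltransferase Art1 (1.54 ± 0.15) and the leucine-rich repeat gene Lrtm1 (1.49 ± 0.13) completed the non-globin risers.

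Genes of cell division fell together. DNA replication genes load and drive the replication fork or make its nucleotides, and mitosis genes build the spindle, its checkpoint and the cleavage furrow. Of 27 tested DNA replication genes 26 fell and 0 rose (0 and 25 with upper-quartile scaling), with a median of -0.82; Dut was not called and Cdc6, Ccne2 and Uhrf1 did not pass the filter. Of 27 tested mitosis genes 26 fell and 0 rose (0 and 20), with a median of -0.72; Cenpa was not called and Bub1, Tpx2 and Ect2 did not pass the filter. Among all tested entries 27.9% fell and the median was -0.17.

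The replicative helicase subunit Mcm7 stood at 47.8, 32.6 and 46.7 RPKM at P3 and 17.9, 18.3 and 20.5 RPKM at P7. It fell 2.25-fold with no overlap (log2 = -1.11 ± 0.13, adjusted p = 1.01e-05). Mcm2 of the same helicase fell from 30.5 ± 6.73 to 14.1 ± 0.866 RPKM (-1.04 ± 0.13) and Mcm6 from 45.6 ± 4.85 to 22.5 ± 0.828 RPKM (-0.98 ± 0.11). Rrm1, the large subunit of ribonucleotide reductase, stood at 49.5, 37.2 and 52.5 RPKM at P3 and 20.6, 22.2 and 22.3 RPKM at P7 (-1.05 ± 0.12), and the sliding clamp gene Pcna went from 139.6 ± 24.3 to 76.7 ± 2.57 RPKM (-0.84 ± 0.12). In mitosis, the DNA topoisomerase Top2a stood at 63.1, 40.1 and 62.3 RPKM at P3 and 23.7, 24.5 and 25.8 RPKM at P7. It fell 2.24-fold (log2 = -1.10 ± 0.15, adjusted p = 6.77e-05). The checkpoint kinase Bub1b (16.8 ± 5.04 to 7.85 ± 0.807 RPKM; -0.96 ± 0.18) and the spindle motor Kif11 (21.4 ± 4 to 11.1 ± 0.756 RPKM; -0.87 ± 0.16) fell as well. Ccnb1, the cyclin of mitotic entry (chromosome 13, 100778739 to 100786486), stood at 38.1, 25.3 and 43.9 RPKM at P3 and 17.6, 21 and 21.3 RPKM at P7 (log2 = -0.78 ± 0.18, adjusted p = 0.00353), and the proliferation marker Mki67 at 40.5, 33.4 and 46.4 RPKM at P3 and 25.1, 26.7 and 28.1 RPKM at P7 (log2 = -0.56 ± 0.13, adjusted p = 0.00405). LV P3 replicate 2 was the lowest P3 library for each of these genes, and without it 27 replication and 26 mitosis genes fell. Without the first P3 and P7 libraries 22 and 13 did, and Ccnb1 and Mki67 were no longer called.

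The first step is set beside these falls for both lists, with no test of the difference between the lists. In the first step, from P0 to P3, 24 of the 27 mitosis genes and 4 of the 27 replication genes fell, with medians of -0.62 and -0.20; among all tested entries 20.6% fell in that step. The test of the difference between the steps called 7 replication genes lower in the second step and 0 mitosis genes (2.21% of all tested entries were called lower); over all entries its calls went from 409 to 171 without LV P3 replicate 1. For Mcm2 the steps were -0.10 ± 0.13 and -1.04 ± 0.13 (adjusted p of the difference = 0.019), and for Mcm7 -0.25 ± 0.13 and -1.11 ± 0.13 (0.0386). Top2a had -0.55 ± 0.15 and -1.10 ± 0.15 (0.313). The steps share the P3 libraries, so each is given only beside the other. Of 17 cell-cycle inhibitor genes 2 rose and 4 fell (upper-quartile scaling: 2 and 2), where 6.56% of all tested entries rose and 27.9% fell. The stress gene Gadd45a rose (0.68 ± 0.16), and its relative Gadd45b (-0.91 ± 0.18) and the pocket protein Rbl1 (-0.72 ± 0.13) fell. Cdkn1a stood at 1.17, 0.359 and 1.08 RPKM at P3 and 0.942, 0.678 and 0.834 RPKM at P7 (log2 = -0.01 ± 0.14, adjusted p = 0.949).

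Because these genes moved together, the sequence upstream of their starts was searched for the binding letters of regulators of cell-cycle genes. The search covered, on both strands, 250 bases before 1 annotated start per gene (RefSeq, GRCm38.p6). E2F letters, TTTGGCGC or TTTCGCGC, stood before 4 of the 22 replication genes with a window (18.2%) and before 0.673% of all 27025 genes. The NF-Y box CCAAT stood before 18 of 22 mitosis genes (81.8%) and 34.5% of all genes, and the CHR letters TTTGAA before 7 of 22 (31.8%) and 16.3%. CCAAT also stood before 13 of 22 replication genes (59.1%) and 14 of 30 fatty acid genes (46.7%), and TTTGAA before 13.6% and 10% of them. The 27025 genes include genes that were not tested here, so part of the CCAAT excess may not be particular to mitosis genes. Fewer than 80% of the called genes had a window, so no share over them is given. 4 windows are shown on the gene's strand, 5′ to 3′, with capitals for matches on either strand to the E2F letters in Mcm6 and to CCAAT and TTTGAA in the other windows, because they hold several matches or belong to a gene described here. Mcm6 (chr1:128359706-128359955, minus strand) has 2 TTTGGCGC and 1 TTTCGCGC, of which 2 overlap. Ccnb1 (chr13:100786487-100786736, minus strand) has 2 CCAAT and no TTTGAA. Top2a (chr11:99024190-99024439, minus strand) has 6 CCAAT and 2 TTTGAA, and Ube2c, a ubiquitin-conjugating enzyme gene of mitotic exit (chr2:164769679-164769928, plus strand), 6 and 1, with an overlap of 2 CCAAT.
Mcm6: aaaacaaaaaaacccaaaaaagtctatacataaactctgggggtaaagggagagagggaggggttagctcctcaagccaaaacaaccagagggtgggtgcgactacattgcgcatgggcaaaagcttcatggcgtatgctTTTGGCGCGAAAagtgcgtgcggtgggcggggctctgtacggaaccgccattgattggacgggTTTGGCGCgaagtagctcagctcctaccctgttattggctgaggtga
Ccnb1: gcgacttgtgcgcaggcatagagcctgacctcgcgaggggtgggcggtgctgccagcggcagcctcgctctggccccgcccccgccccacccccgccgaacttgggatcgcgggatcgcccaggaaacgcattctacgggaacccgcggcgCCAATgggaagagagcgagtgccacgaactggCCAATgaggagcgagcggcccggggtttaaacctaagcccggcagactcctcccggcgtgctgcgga
Top2a: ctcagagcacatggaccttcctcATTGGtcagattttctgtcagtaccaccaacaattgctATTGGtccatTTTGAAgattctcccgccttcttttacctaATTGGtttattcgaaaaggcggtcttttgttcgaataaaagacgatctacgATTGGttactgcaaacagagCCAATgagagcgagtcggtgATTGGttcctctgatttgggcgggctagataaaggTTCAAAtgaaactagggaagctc
Ube2c: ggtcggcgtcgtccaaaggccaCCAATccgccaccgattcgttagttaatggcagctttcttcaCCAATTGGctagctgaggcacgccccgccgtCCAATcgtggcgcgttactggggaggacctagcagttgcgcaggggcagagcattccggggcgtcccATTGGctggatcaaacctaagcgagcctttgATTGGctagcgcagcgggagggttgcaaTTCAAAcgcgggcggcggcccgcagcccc
A match is a run of letters and not a site shown to be bound.

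Fuel-use genes changed mainly before P3. Of 36 tested genes of fatty acid uptake and oxidation, 34 rose and 0 fell from P0 to P3 (7.26% of all tested entries rose), with a median of 1.06. From P3 to P7 1 rose and 16 fell, with a median of -0.24, where 6.56% of all tested entries rose and 27.9% fell. After upper-quartile scaling 2 rose and 5 fell, and 0 and 7 did without the first P3 and P7 libraries. The steps differed for 29 of the 36, all lower in the second. The uncoupling protein gene Ucp3 stood at 12.8, 22.6 and 19.5 RPKM at P3 and 24.5, 18.9 and 19.7 RPKM at P7, and the ages overlapped (log2 = 0.22 ± 0.17, adjusted p = 0.33; first step 4.14 ± 0.17). Pdk4, a kinase that shuts off pyruvate oxidation, stood at 64.5, 74.8 and 79.3 RPKM at P3 and 77.5, 87 and 84.4 RPKM at P7 (log2 = 0.19 ± 0.16, adjusted p = 0.361; first step 2.48 ± 0.16). The only riser of the list was Plin5, a coat protein of lipid droplets, from 0.983 ± 0.184 to 1.81 ± 0.202 RPKM (0.51 ± 0.12). The carnitine carrier Slc25a20 (-0.48 ± 0.08) and the trifunctional protein subunit Hadha (-0.50 ± 0.09) fell under both scalings.

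Several genes of lipid handling were highest at P3. The acyl-CoA thioesterase Acot1 averaged 11.3 RPKM at P0, stood at 59.2, 57.6 and 56 RPKM at P3 and 22.1, 19.5 and 22.4 RPKM at P7, with no overlap, and fell from P3 to P7 (-1.39 ± 0.21; first step 2.33 ± 0.21). Scd4, a fatty acid desaturase gene, went from 58.7 ± 3.72 to 35.3 ± 4.04 RPKM (-0.72 ± 0.12; first step 3.54 ± 0.12). The lipase inhibitor gene Angptl4 stood at 52.6, 59.5 and 60.3 RPKM at P3 and 34.5, 38.1 and 39.2 RPKM at P7 (log2 = -0.61 ± 0.19, adjusted p = 0.0192; first step 3.45 ± 0.19), no longer called under upper-quartile scaling (adjusted p = 0.127), as did leaving out LV P3 replicate 3 (adjusted p = 0.0629) or LV P7 replicate 1 (0.0621). Fbp2, the muscle fructose bisphosphatase, stood at 12.9, 13.4 and 12.7 RPKM at P3 and 12.8, 11.3 and 13.3 RPKM at P7, and the ages overlapped (log2 = -0.06 ± 0.11, adjusted p = 0.666; first step 3.70 ± 0.11). Of 17 genes of ketone body and branched-chain amino acid breakdown 1 rose and 6 fell (1 and 5 with upper-quartile scaling), shares near the 6.56% and 27.9% of all tested entries, among them the branched-chain dehydrogenase subunit Dbt (-0.68 ± 0.10) and the carboxylase subunit Mccc1 (-0.47 ± 0.09).

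**Figure D3:**
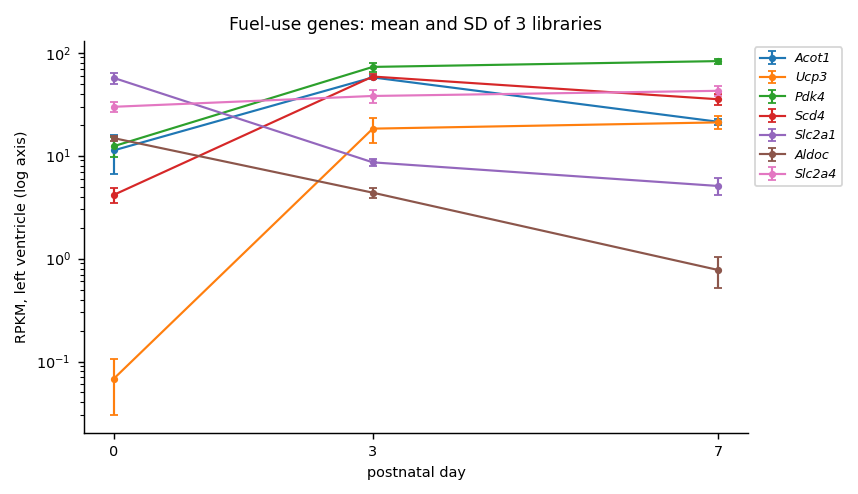
Mean RPKM of 7 fuel-use genes in the left ventricle at postnatal days 0, 3 and 7 on a log axis; bars are the SD of 3 libraries. Acot1 and Scd4 peak at P3, Ucp3 and Pdk4 overlap between P3 and P7, and Slc2a1 and Aldoc go on falling.

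Glycolysis went the other way in the first step and little further in the second. Of all tested entries 20.6% fell in the first step, and 27.9% fell and 6.56% rose in the second. Of 29 tested glycolysis and glucose uptake genes 21 fell from P0 to P3 (median -0.86), and 11 fell and 0 rose from P3 to P7 (median -0.21; 5 and 5 with upper-quartile scaling, 0 and 4 without the first P3 and P7 libraries). The test of the difference called 12 of them higher in the second step, against 1.62% of all tested entries. Aldoc, the brain-type aldolase, was an exception, at 4.23, 4.9 and 3.99 RPKM at P3 and 0.495, 0.991 and 0.839 RPKM at P7. It fell 5.64-fold (log2 = -1.60 ± 0.12, adjusted p = 3.27e-08). The glucose transporter of fetal heart, Slc2a1, stood at 8.13, 8.33 and 9.38 RPKM at P3 and 4.29, 4.81 and 6.13 RPKM at P7 (log2 = -0.67 ± 0.13, adjusted p = 0.000899) after a first step of -2.59 ± 0.13, and the insulin-responsive Slc2a4 at 42.5, 31.6 and 40.0 RPKM at P3 and 46.9, 37.2 and 43.9 RPKM at P7 (log2 = 0.17 ± 0.13, adjusted p = 0.34). Glycogenin, Gyg, the primer of glycogen chains, fell from 162 ± 5.55 to 89.4 ± 3.92 RPKM (-0.85 ± 0.10).

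Few genes of the respiratory chain were called, where 34.4% of all tested entries were. Of 35 respiratory chain subunit genes 1 rose, the muscle-type oxidase subunit Cox7a1 (495 ± 94.3 to 676 ± 30.0 RPKM; 0.46 ± 0.15), a call that ended without LV P3 replicate 1 (adjusted p = 0.112), LV P3 replicate 3 (0.103), LV P7 replicate 1 (0.0704) or LV P7 replicate 2 (0.0608). Ndufv1 of complex I fell (-0.35 ± 0.10), no longer called under upper-quartile scaling (adjusted p = 0.289), as did leaving out LV P3 replicate 1 (adjusted p = 0.0788) or LV P7 replicate 2 (0.0637). Upper-quartile scaling called 4 subunit genes higher and 0 lower. Of 21 genes of the tricarboxylic acid cycle 0 rose and 4 fell (1 after upper-quartile scaling, 9 without LV P3 replicate 2, 1 without the first P3 and P7 libraries). The succinyl-CoA ligase subunit Suclg2 (-0.56 ± 0.09) was the one that fell under both. Of 19 genes of mitochondrial biogenesis and dynamics 0 rose and 1 fell (1 and 0 with upper-quartile scaling, 0 and 5 without LV P3 replicate 2). Among 24 cholesterol and lipid synthesis genes 16 fell and 1 rose (3 and 9 with upper-quartile scaling, 0 and 7 without the first P3 and P7 libraries), with a median of -0.39. The isoprenoid enzyme Idi1 (12.8 ± 0.107 to 6.04 ± 0.746 RPKM; -0.98 ± 0.17) and the fatty acid synthase Fasn (12.8 ± 2.98 to 6.18 ± 0.713 RPKM; -0.93 ± 0.14) fell.

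Of 20 genes for ion channels and gap junctions 6 rose and 6 fell (8 and 3 with upper-quartile scaling), where 6.56% of all tested entries rose and 27.9% fell. The pacemaker channel Hcn2 stood at 2.32, 3.02 and 2.97 RPKM at P3 and 8.21, 6.12 and 7.34 RPKM at P7 and rose 2.61-fold (log2 = 1.12 ± 0.14, adjusted p = 1.78e-05), while its relative Hcn4, marker of the sinus node, fell from 2.28 ± 0.243 to 0.91 ± 0.172 RPKM (-0.78 ± 0.16). The repolarising channel genes Kcna5 (0.59 ± 0.10) and Kcnk3 (0.57 ± 0.12) rose. Kcnj5 (-0.76 ± 0.13) and Kcnq1 (-0.71 ± 0.10) fell. Of 18 calcium handling and T-tubule genes 1 rose and 6 fell (2 and 3 with upper-quartile scaling), near the shares of all tested entries. The calcium sensor S100a1 stood at 480.5, 708 and 563 RPKM at P3 and 995, 1047 and 924 RPKM at P7 (log2 = 0.78 ± 0.15, adjusted p = 0.000794). The pump inhibitor phospholamban, Pln, went from 12.8 ± 0.466 to 6.78 ± 0.683 RPKM (-0.84 ± 0.11; 1 of 2 entries) and the phosphatase inhibitor Ppp1r1a from 13 ± 1.19 to 5.22 ± 1.48 RPKM (-1.20 ± 0.17).

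Most genes that pattern the chambers, transcription regulators and the growth factor gene Bmp10, fell: of 18 tested, 14 fell and 3 rose (3 and 12 with upper-quartile scaling, 1 and 9 without the first P3 and P7 libraries), with a median of -0.68. Besides Hey2, the bHLH factor Hand1 of the left ventricle fell to near 0, at 1.26, 1.38 and 1.37 RPKM at P3 and 0.0889, 0.254 and 0.0579 RPKM at P7 (log2 = -1.05 ± 0.16, adjusted p = 0.000182). Cited1, a transcription co-activator (3.58 ± 0.345 to 0.778 ± 0.0808 RPKM; -1.36 ± 0.20, 1 of 4 entries), Gata6 (61.8 ± 3.31 to 34.9 ± 4.4 RPKM; -0.81 ± 0.09), Tbx20 (28.4 ± 5.02 to 16 ± 0.191 RPKM; -0.78 ± 0.13) and the ventricular Irx4 (32.1 ± 0.126 to 19.9 ± 3.35 RPKM; -0.68 ± 0.11) fell. The risers were Hey1 (0.58 ± 0.14), Heyl (0.66 ± 0.11) and Tbx2 (0.31 ± 0.11), of which Hey1 and Heyl are Notch targets. Of 20 Notch, Wnt and neuregulin pathway genes 3 rose and 3 fell (3 and 2 with upper-quartile scaling, 1 and 6 without LV P3 replicate 2), where 6.56% of all tested entries rose and 27.9% fell. The Notch ligand Dll4 of arterial endothelium rose (7.55 ± 1.49 to 10.8 ± 0.587 RPKM; 0.48 ± 0.14), a call that ended without LV P3 replicate 2 (adjusted p = 0.0587). The ligand Jag2 (0.39 ± 0.13) and the target Hes1 (0.42 ± 0.12) rose. The neuregulin receptor Erbb2 (8.38 ± 1.35 to 4.33 ± 0.316 RPKM; -0.81 ± 0.17) and the Wnt inhibitor Wif1 (-0.86 ± 0.15) fell.

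Of 13 imprinted growth-related genes 6 fell under both scalings and 1, the proteoglycan Dcn, rose, with a median of -0.39. Under both scalings 12.7% of all tested entries fell and 6.56% rose. Plagl1, a zinc-finger factor (chromosome 10, 13090832 to 13131694), stood at 71.8, 59 and 73.7 RPKM at P3 and 22.8, 23.6 and 25.9 RPKM at P7 and fell 2.83-fold (log2 = -1.46 ± 0.15, adjusted p = 1.55e-06). The growth-restraining genes Igf2r (74.5 ± 14.8 to 37.6 ± 4.76 RPKM; -0.95 ± 0.18) and Grb10 (10.4 ± 1.76 to 4.2 ± 0.669 RPKM; -1.13 ± 0.16; 1 of 2 entries) fell. The Igf2 entry NM_001122737, 1 of 3 of that gene, stood at 13.7, 12.2 and 11.5 RPKM at P3 and 8.16, 9.7 and 9.96 RPKM at P7. The ages did not overlap, but the entry was not called (log2 = -0.39 ± 0.23, adjusted p = 0.185). Of 15 RNA-binding regulators of splicing and messenger RNA in muscle 9 fell and 0 rose (0 and 8 with upper-quartile scaling, 0 and 5 without the first P3 and P7 libraries), among them the fetal Igf2bp3 (6.3 ± 0.36 to 2.56 ± 0.695 RPKM; -1.05 ± 0.14), Igf2bp2 (-0.99 ± 0.12), the splicing factor Srsf10 (-0.72 ± 0.12; 1 of 2 entries) and Rbm20, the titin splicing regulator (24.3 ± 4.78 to 15.7 ± 1.66 RPKM; -0.59 ± 0.12). In the Hippo and TGF-beta list 2 of 24 rose and 4 fell (3 and 2 with upper-quartile scaling), where 6.56% of all tested entries rose and 27.9% fell. The ligand Tgfb1 rose (19.6 ± 1.45 to 28.9 ± 4.33 RPKM; 0.53 ± 0.12), and Bmp7 (10.2 ± 0.371 to 3.56 ± 0.409 RPKM; -1.30 ± 0.11) and the matricellular Ccn2 (35.7 ± 10.7 to 17 ± 2.18 RPKM; -0.99 ± 0.19) fell. Of 22 ribosomal protein genes 0 rose and 6 fell, but 0 and 1 with upper-quartile scaling.

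**Figure D4:**
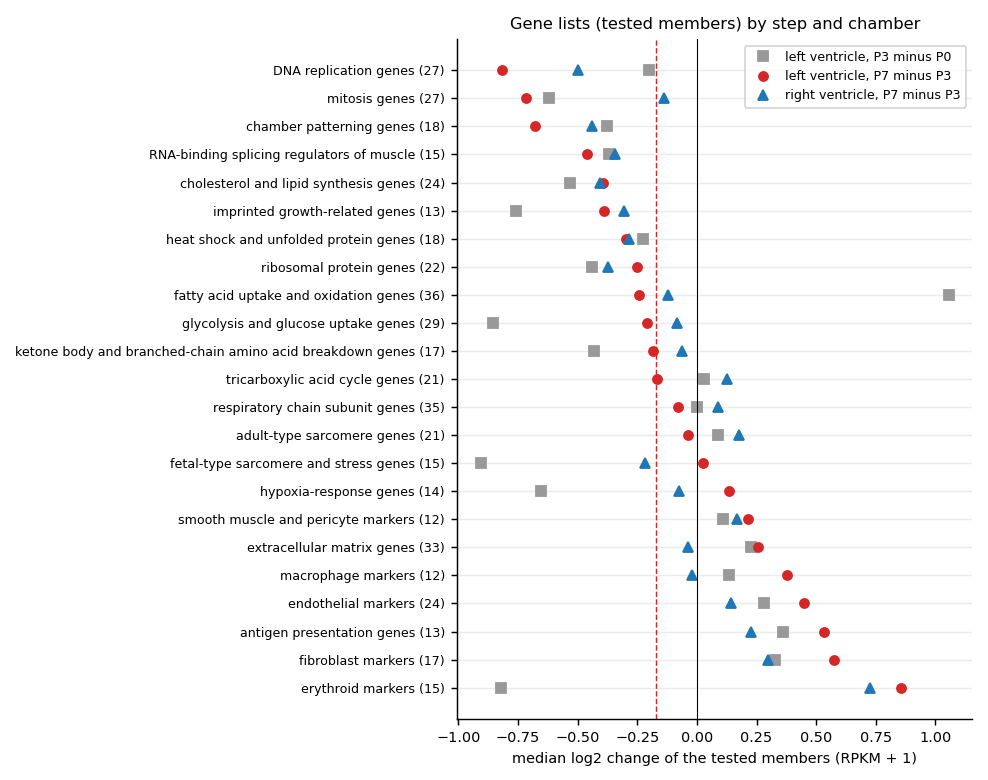
Median log2 change of the tested members of 23 gene lists (number in brackets) for the left ventricle from P0 to P3 (squares) and from P3 to P7 (circles), and for the right ventricle from P3 to P7 (triangles). The dashed line is the median of all entries in the left ventricle from P3 to P7, -0.17; fatty acid genes stand at 1.06 in the first step and -0.24 in the second.

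Most endothelial and fibroblast markers rose, and fewer of the pericyte, smooth muscle and matrix genes passed. Of 24 tested endothelial markers 19 rose and 1 fell (20 and 0 with upper-quartile scaling, 11 and 0 without the first P3 and P7 libraries), with a median of 0.45; 6.56% of all entries rose. Their summed level was 1751 to 1989 RPKM at P3 and 2466 to 2646 RPKM at P7. Most of this sum was Fabp4 alone, which averaged 1180 RPKM at P3 and 1591 RPKM at P7 (log2 = 0.43 ± 0.16, adjusted p = 0.0413). The capillary lipase anchor Gpihbp1 stood at 78.4, 80.7 and 74.8 RPKM at P3 and 132, 136 and 152 RPKM at P7 (log2 = 0.83 ± 0.12, adjusted p = 0.00012). The junction cadherin Cdh5 (123 ± 2.15 to 192 ± 12.7 RPKM; 0.63 ± 0.10) and the vascular growth factor receptor Kdr (44 ± 9.23 to 63.5 ± 5.84 RPKM; 0.54 ± 0.13) rose, and Epas1, a hypoxia-inducible factor abundant in endothelium, rose from 32.9 ± 1.93 to 61.1 ± 6.36 RPKM (0.87 ± 0.11). Plvap, of fenestrated endothelium, fell (-0.55 ± 0.16), no longer called under upper-quartile scaling (adjusted p = 0.0895). Among 12 smooth muscle and pericyte markers 4 rose and 1 fell (6 and 1 with upper-quartile scaling): the pericyte genes Rgs5, at 91.7, 118 and 106 RPKM at P3 and 267, 236 and 242 RPKM at P7 (log2 = 1.24 ± 0.11, adjusted p = 2.84e-07), Vtn, Kcnj8 (0.74 ± 0.10) and Higd1b (0.71 ± 0.18) rose, and Cnn1 of smooth muscle fell. Acta2, Tagln, Smtn, Cspg4, Notch3, Mcam and Des were not called.

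Of 17 fibroblast markers 11 rose and 1 fell (14 and 1 with upper-quartile scaling, 7 and 1 without the first P3 and P7 libraries), where 6.56% of all tested entries rose and 27.9% fell. The median of these markers was 0.57, and their summed level was 1356 to 1486 RPKM at P3 and 1649 to 1788 RPKM at P7. The largest part of that sum was Vim, which averaged 790 RPKM at P3 and 760 RPKM at P7. The faller was the Gsn entry NM_001206367 (-1.07 ± 0.12), and the call rests on the choice of entry: another of the gene's 4, NM_146120, was called higher (0.54 ± 0.16). Beside Pi16, the microfibril genes Mfap4, at 52.6, 49.8 and 67.8 RPKM at P3 and 138, 128 and 143 RPKM at P7 (log2 = 1.26 ± 0.14, adjusted p = 6.54e-06), and Mfap5 (39 ± 0.538 to 87.1 ± 1.02 RPKM; 1.14 ± 0.18) and the surface protein Thy1 (15.4 ± 1.4 to 33.1 ± 2.63 RPKM; 1.06 ± 0.12) rose. Vim stood at -0.05 ± 0.11 and Tcf21 at 0.07 ± 0.10; neither was called, although Tcf21 was after upper-quartile scaling (adjusted p = 0.0455). Of 33 genes of the extracellular matrix 13 rose and 1 fell (16 and 1 with upper-quartile scaling, 7 and 1 without the first P3 and P7 libraries), beside the same shares of all tested entries. The basement-membrane collagen Col15a1 (45.4 ± 8.63 to 86.4 ± 8.57 RPKM; 0.93 ± 0.14) rose, and the fibrillin gene Fbn2, of fetal matrix, fell (10.1 ± 3.64 to 4.15 ± 0.324 RPKM; -1.05 ± 0.21). Elastin, Eln, rose from 34 ± 5.69 to 58.4 ± 11.1 RPKM (0.76 ± 0.23), a call that ended without LV P3 replicate 2 (adjusted p = 0.0602) or LV P7 replicate 3 (0.083). The fibrillar collagens Col1a1 (log2 = 0.26 ± 0.24, adjusted p = 0.415) and Col3a1 (log2 = 0.26 ± 0.15, adjusted p = 0.184) were not called, Col3a1 only after upper-quartile scaling (adjusted p = 0.0138). The fibroblast and matrix lists share Dpt, Lum and Col1a1.

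Genes that present antigen rose as well. Of 13 antigen presentation genes 10 rose and 0 fell (11 and 0 with upper-quartile scaling, 4 and 0 without the first P3 and P7 libraries), with a median of 0.53. Among all tested entries 6.56% rose and 27.9% fell. The class I genes H2-K1, at 20.1, 16.1 and 16.8 RPKM at P3 and 24.1, 35 and 36 RPKM at P7 (log2 = 0.80 ± 0.18, adjusted p = 0.00291), and H2-D1 (36.1 ± 6.55 to 59.1 ± 9.14 RPKM; 0.70 ± 0.15) rose with their light chain B2m (0.53 ± 0.15) and the immunoproteasome subunit Psmb9 (0.72 ± 0.19); class I genes are close copies of each other, so their reads may be shared. Of 12 macrophage markers 6 rose and 0 fell (8 and 0 with upper-quartile scaling, 3 and 0 without the first P3 and P7 libraries), and their sum was 93.1 to 109 RPKM at P3 and 128 to 146 RPKM at P7. Folr2 of resident macrophages (0.434 ± 0.132 to 1.63 ± 0.436 RPKM; 0.87 ± 0.17) and the endotoxin co-receptor Cd14 (0.67 ± 0.15) rose, while Adgre1 was not called (log2 = -0.04 ± 0.16, adjusted p = 0.846). Among 9 markers of lymphocytes and granulocytes 0 rose and 2 fell (1 and 0 with upper-quartile scaling, 0 and 0 without LV P3 replicate 2), and of 16 interferon-response genes 2 rose and 2 fell (2 and 0, and 1 and 1).

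Globin transcripts were lower at P3 than at either other age. From P3 to P7 6.56% of all tested entries rose and 27.9% fell, and from P0 to P3 7.26% rose and 20.6% fell. Of 15 erythroid markers 8 rose and 1 fell (11 and 0 with upper-quartile scaling), with a median of 0.86, after a first step in which 2 rose and 11 fell (median -0.82). Their sum was 718 to 732 RPKM at P3 and 1940.0 to 2505 RPKM at P7. The alpha-globin gene Hba-a1 (chromosome 11, 32283672 to 32284486) averaged 765 RPKM at P0 and stood at 197, 229.6 and 206 RPKM at P3 and 757, 636 and 884 RPKM at P7 (log2 = 1.83 ± 0.18, adjusted p = 1.16e-06). Hba-a2, a near-identical copy whose reads cannot be separated with certainty, stood at 127, 132 and 127 RPKM at P3 and 479.9, 411 and 524 RPKM at P7 (1.86 ± 0.19). The beta-globin genes Hbb-bs (140.2 ± 12.5 to 435 ± 73.7 RPKM; 1.62 ± 0.24) and Hbb-bt (176 ± 16.2 to 402 ± 62.2 RPKM; 1.19 ± 0.27), also close copies, rose with the haem enzyme Alas2 (1.07 ± 0.179 to 3.28 ± 0.734 RPKM; 1.04 ± 0.17) and the membrane anion exchanger Slc4a1 (0.86 ± 0.21). The erythroid factors Klf1 and Gata1 did not pass the filter, reaching at most 0.206 and 0.097 RPKM in a left ventricle library. The difference between the steps was called for the 4 globins (adjusted p = 2.29e-07 for Hba-a1). The amount of blood left in the tissue was not measured, and its part in these changes was not tested.

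Where the second step differed from the first was tested directly: 409 entries (3.83%) were called, 173 higher and 236 lower in the second step, and 1751 had an unadjusted p under 0.05. The count was 171 without LV P3 replicate 1, 189 without LV P3 replicate 3 and 272 without LV P7 replicate 3. The entries with the largest lower differences included Scd4, Angptl4, Fbp2 and Ucp3. Those with the largest higher difference were Gipr, the incretin receptor gene, and the 4 globins. Gipr averaged 13.9 RPKM at P0 and stood at 0.639, 0.265 and 0.592 RPKM at P3 and 0.188, 0.118 and 0.153 RPKM at P7, so that its first step was -3.31 ± 0.17 and its second was not called (log2 = -0.37 ± 0.17, adjusted p = 0.0967).

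The right ventricle made the same step with smaller lists, 267 entries higher (2.5%) and 1575 lower (14.8%), from 5 libraries. Of the entries that rose in the left ventricle 213 (30.4%) also rose in the right, 79.8% of the right list. Of those that fell 1197 (40.2%) also fell in the right, 76% of the right list, and 1 entry was called in opposite directions. Left and right libraries of 1 age and number deviated together (r of their residuals over entries 0.27 to 0.59), so the chambers are not independent samples. Myh7 (-4.07 ± 0.40), Hey2 (-1.93 ± 0.12) and Pi16 (1.45 ± 0.22) moved the same way in the right ventricle. Of the marker lists, 4 of 24 endothelial markers rose and 1 fell there, 6 and 1 of 17 fibroblast markers, 8 and 1 of 15 erythroid markers, 1 and 1 of 33 matrix genes, and 0 and 1 of 13 antigen presentation genes.

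Without pairing, the test of the difference between the ventricles in this step called 0 entries in limma (519, 4.87%, had an unadjusted p under 0.05; voom on the recovered reads also called 0). The SE of that difference had a median of 0.18 on the log2 scale. With left and right libraries of the same age and number as pairs, 3 at P3 and 2 at P7, it called 13 entries (0.122%; 9.24% had an unadjusted p under 0.05), and 0 with upper-quartile scaling (lowest adjusted p = 0.146). Of the 13, 6 were cell-division genes called lower in the left ventricle and not called in the right: Hmmr, Cdc25c, Cdca3, Ccnb1, Ckap2l and Ube2c (Cdca3 and Ube2c not after upper-quartile scaling of the left ventricle fit). Ccnb1 in the right ventricle stood at 21.4, 17.7 and 30.6 RPKM at P3 and 21.3 and 23.5 RPKM at P7, against 38.1, 25.3 and 43.9 RPKM at P3 in the left. The 3 right P3 libraries overlapped the P7 libraries of both chambers, while the left P3 libraries lay above them.

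Over the lists, 0 of 27 mitosis genes and 15 of 27 replication genes fell in the right ventricle, with medians of -0.14 and -0.50, where 14.8% of all tested entries fell. The paired left-minus-right difference was below 0 for all 27 mitosis genes under both scalings (median -0.55 with the deposited values and -0.54 after upper-quartile scaling). It was also below 0 for all 27 replication genes (median -0.26 and -0.25), and for 5237 of the 10668 tested entries. This side was not particular to cell division. The difference was below 0 for all 21 tricarboxylic acid cycle genes (median -0.25 and -0.24), 32 of 36 fatty acid genes and 26 of 29 glycolysis genes. In contrast, it was below 0 for 3 of 24 endothelial and 1 of 17 fibroblast markers. Of the mitosis genes 4 were among the 13 called, and of the replication genes 0. These genes are not independent of each other, and no test over the lists was made.

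**Figure D5:**
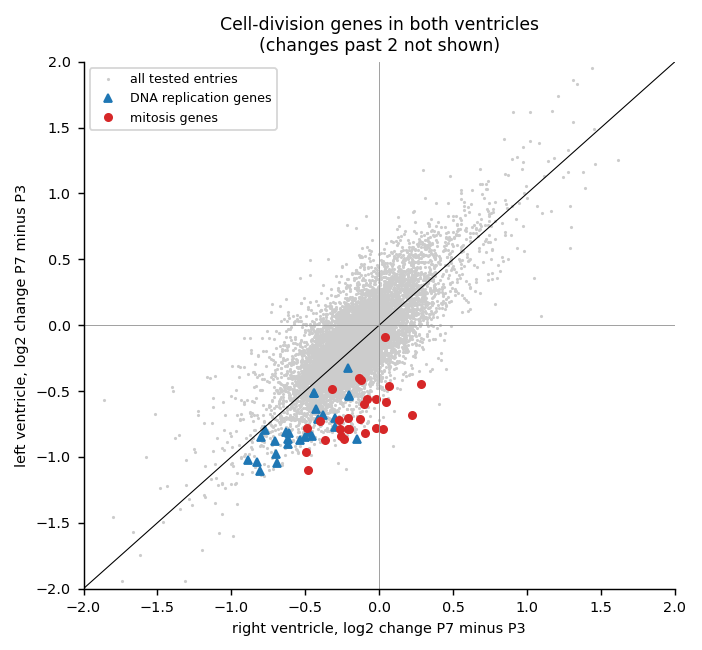
Log2 change from P3 to P7 in the left ventricle against that in the right ventricle for all tested entries (grey), DNA replication genes (triangles) and mitosis genes (circles); the diagonal marks equal change, and changes past 2 are not drawn. Mitosis genes lie below the diagonal, with a median of -0.72 in the left and -0.14 in the right ventricle.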

How the data were processed

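The deposited values are RPKM, 1 file per library, made by the authors from reads aligned with STAR 2.4.0j to mm10, per the submitters' processing notes. The counter, annotation and filters (not given in the sources used here) could not be checked, and the unit was read from the values. Names and positions are from RefSeq GRCm38.p6, which named 20379 of 20624 entries. Whole reads could be recovered from the RPKM steps and served for depth and voom. Of the values of 1 to 20 recovered reads 77.8% were even. Whether both ends of a pair were counted was not tested, and in that case voom would take the counting noise as too small. Entries with 1 RPKM in 2 libraries were fitted on log2(RPKM + 1) with limma 3.58.1 (R 4.3.3; all 17 libraries, group means, intensity trend). For lists, a gene was represented by whichever tested entry had the highest mean. Not every gene with several entries is marked above or below. For example, the values of Ddc, Cdkn1a, Rbl1, Hspa5, Igfbp7 and Rxrg are each of 1 of 2 entries. The members and the 45 lists were chosen with earlier results of these data known. Named genes were the 12 largest called changes each way (5 RPKM or more, no overlap), the 5 largest each way in the differences, up to 3 called per list and a fixed set; other list members named were chosen after their values were seen. Fits were tested on simulated data. Left and right libraries of 1 age and number had residual correlations of 0.27 to 0.59 and were treated as pairs in an added fit. Results on some genes are not reported here.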

Additional observations from a re-analysis of the deposited data

Results flagged for a closer look

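In 13 entries the change from P3 to P7 differed between the left and the right ventricle when libraries of the same age and number were paired (limma, each adjusted p = 0.0456). After upper-quartile scaling of the same fit 0 were called, with adjusted p = 0.146 to 0.161 for these 13. Each value is the left minus the right log2 change. Cell-division genes had a lower value in the left ventricle: Hmmr -0.89 ± 0.16, Cdc25c -0.83 ± 0.16, Cdca3 -0.82 ± 0.15, Ccnb1 -0.81 ± 0.15, Ckap2l -0.80 ± 0.15 and Ube2c -0.76 ± 0.15. Casq1, the calcium store protein of fast muscle, was called higher in the right ventricle and not in the left (-0.9997 ± 0.18), and Ckmt2 was called higher in both, with -0.80 ± 0.15. The uridine phosphorylase Upp1 entry had -0.82 ± 0.16 and the Ndrg4 entry NM_001195006 -0.73 ± 0.14. In the other direction stood Tsacc 0.80 ± 0.16, the kinase-like Sbk3 0.85 ± 0.16 and the class I-like H2-T23 0.93 ± 0.17.

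Casq1 in the left ventricle stood at 15.1, 10.3 and 13.5 RPKM at P3 and 16.2, 11.7 and 12.9 RPKM at P7, and in the right at 8.57, 6.6 and 9.31 RPKM at P3 and 16.6 and 20.4 RPKM at P7. H2-T23 stood at 4.63, 3.6 and 4.71 RPKM at P3 and 6.17, 6.45 and 6.78 RPKM at P7 in the left and at 6.55, 6.8 and 6.73 RPKM at P3 and 4.58 and 4.56 RPKM at P7 in the right, so that every left library was higher at P7 and every right library lower. The P7 side of each value rests on 2 right libraries.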

How the results depend on the processing

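All P7 against P3 counts are from limma. Entries higher, against 700, numbered 1594 with median-of-ratios scaling, 1432 with upper-quartile scaling, 1223 with voom on recovered reads and 463 with a filter of 5 RPKM in 3 libraries. Entries lower, against 2974, numbered 1194, 1355 and 1661 under the first 3 of these. Without the P3 and P7 libraries of replicate 1, chosen after seeing the data, 336 were higher, 1000 lower and 1336 called in all. Leaving out 1 library gave 469 to 643 higher, 1556 to 3708 lower and 2107 to 4338 called in all; 1825 were lower without LV P7 replicate 2. The difference between the steps, 409 entries, had 232 with no filter, 647 with voom, 132 without the replicate 1 libraries and 171 to 592 with 1 library left out. The chamber difference, 0 entries, had 2 with no filter, 13 with the replicate block of age and number, and 0 to 1 with 1 library left out (1 without RV P7 replicate 2).

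Same-numbered LV P3 and LV P7 libraries had residual correlations of -0.07, 0.04 and 0.18, under 0.1 in 2 of 3, so the numbers were not taken to pair the ages, although the first-numbered P3 and P7 libraries share the higher NM_008710 level. With the replicate block 796 entries were higher and 3436 lower, and with the block and upper-quartile scaling, chosen after seeing the data, 1581 and 1480. Of 147 named entries 101 kept their side of the threshold and direction under each setting they entered (the filter of 5 RPKM kept 132 of them), and none of the other 46 changed direction with a call. Depth limits entries near 1 RPKM, where the added pseudocount also shrinks changes. In simulated counts 88.1% of 1.5-fold and 100% of 2-fold changes were recovered, and 4.95% of the calls were false. The simulation changed few entries, gave every entry the same spread beyond counting noise and held no outlying library. These rates therefore need not hold for the data.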

Other observations

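Chaperones and protein-turnover genes moved in both directions, close relatives included. Of 18 heat shock and unfolded protein genes 2 rose and 9 fell (3 and 5 with upper-quartile scaling), where 6.56% of all tested entries rose and 27.9% fell. The small heat shock protein gene Hspb8 stood at 42.6, 37.5 and 43.9 RPKM at P3 and 89, 69.8 and 77 RPKM at P7, with no overlap (log2 = 0.91 ± 0.09, adjusted p = 2.95e-06), while its relative Hspb1 stood at 210.3, 179 and 190.0 RPKM at P3 and 119, 99.9 and 130.3 RPKM at P7 (log2 = -0.73 ± 0.10, adjusted p = 4.25e-05). The endoplasmic reticulum chaperone Hspa5 fell from 11.4 ± 1.2 to 6.42 ± 1.58 RPKM (-0.76 ± 0.19), and Hsp90b1 of the same compartment from 204 ± 32 to 129 ± 12.1 RPKM (-0.66 ± 0.11). Of 20 muscle protein turnover genes 3 rose and 3 fell (9 and 1). The related sarcomere-bound ubiquitin ligases moved apart: Trim54 stood at 2.93, 3.56 and 3.34 RPKM at P3 and 9.66, 8.42 and 9.85 RPKM at P7 (log2 = 1.27 ± 0.14, adjusted p = 3.45e-06) and Trim55 at 107, 86.7 and 105 RPKM at P3 and 53, 47.9 and 50.2 RPKM at P7 (log2 = -0.96 ± 0.10, adjusted p = 1.96e-06). Neither pair overlapped between the ages.

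Among all tested entries 6.56% rose and 27.9% fell, and the list counts here are to be read beside these shares. Of 21 thyroid, glucocorticoid and nuclear receptor genes 4 rose and 7 fell (8 and 1 with upper-quartile scaling). The thyroid hormone targets Hr (0.555 ± 0.0536 to 1.89 ± 0.366 RPKM; 0.89 ± 0.10) and Thrsp (1.55 ± 0.156 to 3.63 ± 0.819 RPKM; 0.85 ± 0.13) and the retinoid receptor Rxrg (0.321 ± 0.145 to 1.36 ± 0.437 RPKM; 0.83 ± 0.12) rose. Of 24 antioxidant and glutathione genes 2 rose and 8 fell (7 and 1), and Mgst1, a microsomal glutathione transferase, fell from 14.6 ± 2.22 to 6.68 ± 0.879 RPKM (-1.02 ± 0.16). Of 14 immediate-early response genes 5 rose and 1 fell (5 and 1; 1 and 1 without the first P3 and P7 libraries): Klf4, a flow-responsive factor of endothelium, rose (10.2 ± 0.881 to 17.2 ± 1.85 RPKM; 0.70 ± 0.10), and the stress factor Atf3 fell (3.81 ± 1.29 to 1.6 ± 0.606 RPKM; -0.88 ± 0.20). Of 20 insulin and IGF signalling genes 3 rose and 6 fell (3 and 2), with the binding protein Igfbp7 at 0.70 ± 0.14. Of 14 hypoxia-response genes 3 rose and 3 fell (4 and 1), and of 15 circadian clock genes 1 rose and 0 fell (4 and 0).

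Among markers of other cells and tissues, 2 rose and 0 fell of 14 epicardial markers, 1 and 1 of 5 lymphatic, 1 and 2 of 5 Schwann cell and neuron, 2 and 4 of 13 atrial and conduction, 0 and 2 of 5 skeletal muscle, 1 and 0 of 4 lung, liver, thymus and brown fat markers, and 0 of 4 Y-linked genes; among all tested entries 34.4% were called. The fast skeletal troponin gene Tnni2 stood at 6.63, 3.32 and 7.08 RPKM at P3 and 1.69, 2.39 and 1.4 RPKM at P7 (log2 = -1.20 ± 0.22, adjusted p = 0.000666).

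Of 369 genes with at least 2 tested entries, 2 had entries called in opposite directions. The actin-severing protein gene Gsn had NM_001206367 at 5.19, 6.03 and 5.67 RPKM at P3 and 1.89, 1.94 and 2.71 RPKM at P7 (log2 = -1.07 ± 0.12, adjusted p = 7.44e-06). Its entry NM_146120 went from 4.63, 3.72 and 4.21 RPKM to 7.13, 6.22 and 6.3 RPKM (0.54 ± 0.16, adjusted p = 0.0155), and both calls held after upper-quartile scaling. Pdlim7, a Z-disc protein gene, had -0.60 ± 0.21 for NM_026131 (adjusted p = 0.0339; 0.0949 after upper-quartile scaling) and 0.51 ± 0.11 for NM_001114088 (adjusted p = 0.00236). Entries of a gene share exons, and how reads were divided between them is not stated in the labels.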
